A study of Mus musculus with 10 samples.

Results

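The genes described are 36 genes of the dividing cell, of which 20 act in mitosis and 16 act in DNA replication or its onset. They were chosen by name and found in the deposited table through Ensembl identifiers matched to symbols of GENCODE mouse release 21. All 36 were among the 17737 genes listed, and all 36 were among the 13798 genes with enough counts to be tested. Their lowest count in any tumor was 824, so none was near the detection limit.

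Bulk RNA was sequenced from 10 tumors that B16-F10 cells, a mouse melanoma line, formed under the skin of the right flank of C57BL/6 mice. The implanted cells overexpressed IL-18, a cytokine that acts on natural killer and T cells, either in its wild-type form (WT tumors, numbered 2 to 6) or with the aspartate at position 69 replaced by alanine (D69A tumors, numbered 1 to 5). Each group held 5 tumors collected on day 11, and the comparison asked how gene expression differed between tumors with the mutant and with the wild-type cytokine. All tumors carried an introduced cytokine gene, and tumors of unmodified B16-F10 cells were not analysed here. Not given in the sources used here were the promoter of that gene, whether each line was 1 clone or a pool, and whether each tumor came from its own mouse, so p-values measure only the spread between these samples, which may be technical.

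Cells copy their DNA in S phase and divide it in M phase. Before S phase the factors Cdc6 and Cdt1 load the Mcm helicase onto origins of replication, cyclin E with its kinase and the E2F factors start the phase, Pcna then clamps the polymerases to DNA, and ribonucleotide reductase and thymidylate synthase supply the building blocks. In mitosis cyclin B with Cdk1 drives entry, kinetochore proteins such as Cenpe and Cenpf bind the chromosomes to the spindle, and the spindle checkpoint with Bub1 and Bub1b holds back the Cdc20-activated ligase until all chromosomes are attached. Melanoma cells, leukocytes and stromal cells all use these genes when they divide, so a level in a whole tumor belongs to no one cell type.

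Mitotic and replication genes are known for different letters in their promoters, so the promoters of the members with the smallest p-values are shown first, 3 mitotic and 2 of replication. Promoter sequences came from RefSeq on GRCm38.p6 and covered 28 of the 36 members with 29 promoters. Tpx2, Aurkb, Mcm4, Ccna2, Ccne2, Foxm1, Kif20a and Gins2 had no entry. Each line below gives up to 150 bases upstream of the gene on the gene's own strand, with capitals on the letters CCAAT or their reverse complement ATTGG, which nuclear factor Y binds. The Pcna window holds 116 bases because the rest of its upstream sequence lay inside the annotated gene.
Bub1, chr2:127831866-127832015, minus strand: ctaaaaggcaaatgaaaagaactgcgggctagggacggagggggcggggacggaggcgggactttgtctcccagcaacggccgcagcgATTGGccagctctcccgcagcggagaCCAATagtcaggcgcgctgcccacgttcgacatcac
Cenpf, chr1:189688087-189688236, minus strand: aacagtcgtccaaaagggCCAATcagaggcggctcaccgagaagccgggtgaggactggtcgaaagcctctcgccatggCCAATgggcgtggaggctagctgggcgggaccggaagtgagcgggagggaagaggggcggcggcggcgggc
Nusap1, chr2:119618148-119618297, plus strand: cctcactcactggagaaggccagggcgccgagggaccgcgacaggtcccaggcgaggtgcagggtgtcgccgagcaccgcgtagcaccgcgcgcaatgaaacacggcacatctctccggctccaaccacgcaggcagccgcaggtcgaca
Pcna, chr2:132253315-132253430, minus strand: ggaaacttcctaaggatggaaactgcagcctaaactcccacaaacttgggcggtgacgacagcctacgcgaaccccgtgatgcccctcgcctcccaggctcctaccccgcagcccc
Rrm1, chr7:102441545-102441694, plus strand: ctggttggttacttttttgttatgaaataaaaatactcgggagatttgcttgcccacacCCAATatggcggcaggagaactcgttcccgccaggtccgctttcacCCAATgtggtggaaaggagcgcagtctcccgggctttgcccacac

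Bub1, Cenpf and Rrm1 each show a pair of CCAAT motifs within these windows, and Nusap1 shows none. The Nusap1 window lies partly in an exon of Oip5 on the other strand. The Pcna promoter held its ATTGG in the part not shown, 87 bases before the RefSeq start.

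Over the 250 bases before each RefSeq start, read on both strands, CCAAT occurred in 13 of 15 mitotic promoters (86.7%) and in 9 of 14 replication promoters (64.3%), against 35.2% of the promoters of tested genes and 33.8% of all promoters. The letters TTTGAA, a core of the cell cycle homology region that represses mitotic genes outside late cycle phases, occurred in 6 of 15 mitotic promoters (40.0%), which were those of Mki67, Top2a, Cdk1, Ccnb2, Cdc20 and Kif11. In the replication promoters TTTGAA occurred in 1 of 14 (7.14%), that of Mcm2, against 11.2% for tested genes and 15.99% for all promoters. An E2F motif, searched as TTTGGCGC, TTTCGCGC, TTTCCCGC or TTTGCCGC, occurred in 4 of 14 replication promoters (28.6%), those of Cdc6, Mcm5, Mcm6 and Mcm7. Among the mitotic promoters Cdk1 alone held one, 1 of 15 (6.67%), against 3.05% for tested genes and 1.86% for all promoters. No motif searched is contained in another, and a match describes the letters only.

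Most estimates for the replication and mitosis genes put them a little higher in D69A tumors, and few of the differences exceeded the spread between tumors. By the quasi-likelihood test of edgeR, with p-values adjusted by Benjamini-Hochberg over all tested genes and a threshold of 0.05, 9 of the 36 genes passed (25.0%), and each of the 9 was higher in D69A: Top2a, Cdk1, Bub1, Cenpe, Cenpf, Kif11 and Nusap1 of mitosis, and Ccne2 and Pcna of replication. None of the 36 passed as lower in edgeR, DESeq2 or limma-voom, and 0 were lower at an unadjusted p under 0.05 in any of those tools. Another 6 genes, Mki67, Ccna2, Ccnb1, Ccnb2, Bub1b and Rrm1, were higher at an unadjusted p under 0.05 only, which makes 15 of the 36 (41.7%), against 51.6% of all tested genes in either direction and 23.5% as higher. Across all tested genes 43.6% passed, 18.8% as higher and 24.7% as lower, and the log2 fold changes had a median of 0.002. The share of the 36 called higher, 25.0%, was thus not far from the share of all genes called higher. In bulk RNA, fewer cells of a type and less RNA per cell cannot be told apart.

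The 20 mitotic genes held 7 of the calls (35.0%), and their median log2 fold change was 0.26, a 1.2-fold difference. The 16 replication genes held 2 calls (12.5%), at a median of 0.15, a 1.11-fold difference. Estimates were above 0 for 33 of the 36 and below 0 for Birc5, E2f1 and Cdc6, and the 95% interval spanned 0 for 21. Standard errors of the log2 fold changes lay between 0.08 and 0.15, so that the largest fold the intervals allowed was 1.76, for Cenpf. In 4 genes, Cdk1, Bub1, Nusap1 and Pcna, all D69A tumors lay above all WT tumors, against 12.0% of all tested genes; 17.4% of tested genes, and none of the 36, lay wholly below. The calls moved with single tumors and with scaling. The mitotic count was 13 without WT tumor 2, 3 without WT tumor 3, 4 without D69A tumor 1 and 2 without D69A tumor 2 or 4. In the same order the replication count was 4, 0, 1, 0 and 0, and the share of all tested genes called higher was 19.9%, 15.6%, 21.2%, 15.2% and 15.7%. Without D69A tumor 5 the replication count was 1, and 2108 of 14009 tested genes were called higher. Upper quartile scaling left the calls of Bub1, Cenpf and Nusap1, and library size alone those of Bub1 and Cenpf, with 31 of 36 estimates above 0 in both and 15.1% and 13.5% of all tested genes called higher. Without the filter on low counts Bub1, Ccne2, Cenpe, Cenpf and Nusap1 passed (13.2% of all genes higher), and Cdk1 besides them with a minimum of 1 CPM in 5 tumors (19.1%).

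**Figure D1:**
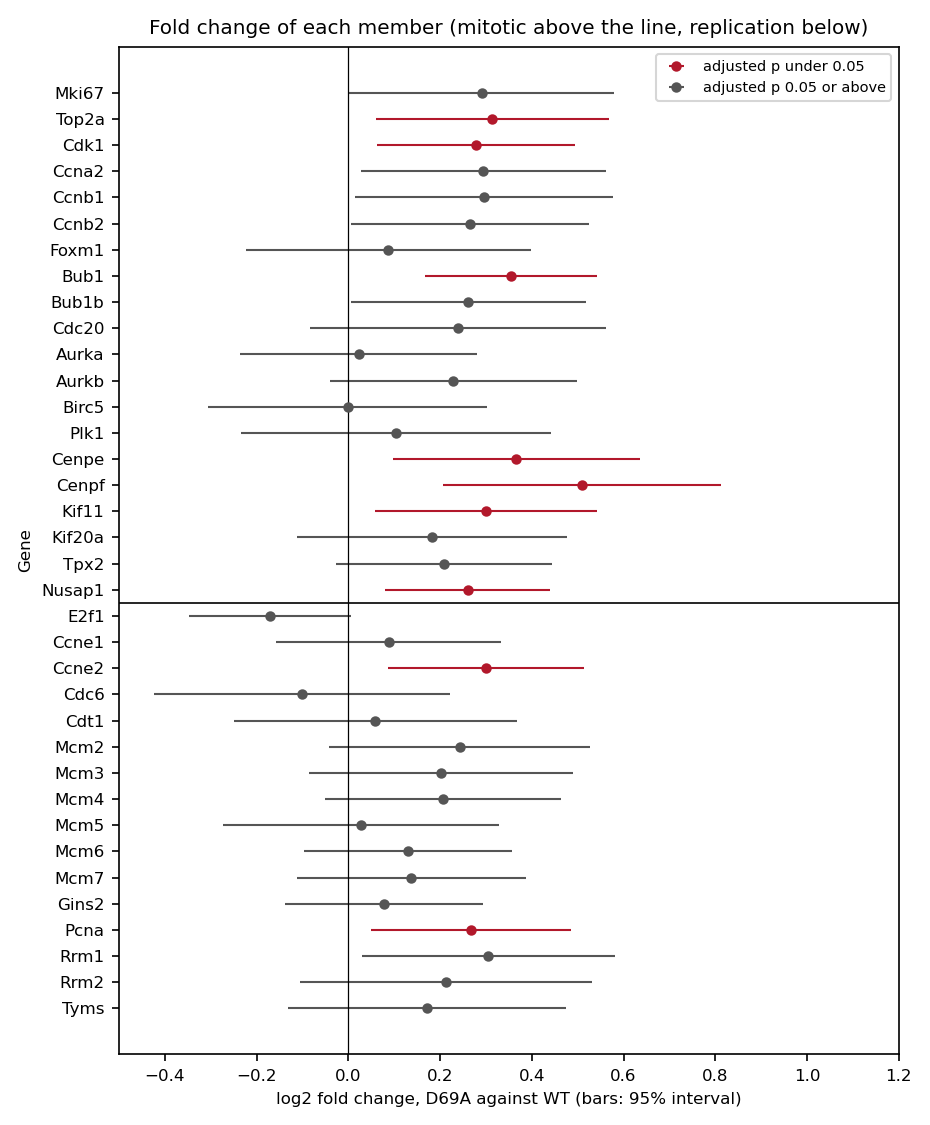
Log2 fold change of D69A against WT tumors for each of the 36 genes (points) with its 95% interval (bars), mitotic genes above the line and replication genes below it. Red marks the 9 genes with an adjusted p under 0.05, all of them to the right of 0, and 21 intervals cross 0.

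Levels are given as CPM, the counts of a gene relative to the library total, with library sizes scaled by TMM, in the order WT 2, 3, 4, 5 and 6, then D69A 1, 2, 3, 4 and 5. Mki67, whose protein coats mitotic chromosomes and marks cycling cells, and Top2a, the topoisomerase that untangles sister chromatids, were the proliferation and chromosome genes. Top2a (ENSMUSG00000020914, chromosome 11, 98992943 to 99024189, with coordinates in mm10 for each gene) stood at 516, 460.0, 438, 339 and 538 CPM in WT tumors and at 593, 586, 498, 627 and 544 CPM in D69A tumors. WT tumor 5 was lowest, and only D69A tumor 3 fell within the WT range. The means were 458 ± 77.8 and 569.7 ± 49.5 CPM (SD, n = 5 each), a 1.24-fold rise (95% interval 1.04 to 1.48, edgeR adjusted p = 0.0462). The Top2a call was lost when any of 6 single tumors was left out (WT 3 or 4, D69A 1, 2, 4 or 5), where the highest edgeR adjusted p was 0.0937. Mki67 ranged from 208.5 to 329 CPM in WT and from 279 to 431 CPM in D69A, a 1.22-fold difference that did not pass (edgeR adjusted p = 0.0951).

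Of the cyclins, their kinase and their transcription factor, Cdk1, the kinase that drives entry into mitosis, was the 1 of 5 that passed. Cdk1 (ENSMUSG00000019942, chromosome 10, 69335146 to 69352938) was measured at 158, 129.5, 155, 111 and 154 CPM in WT tumors and 177, 171, 159.8, 191 and 160.5 CPM in D69A tumors. The groups did not overlap, although D69A tumor 3 lay just above WT tumor 2. The mean rose from 142 ± 20.5 to 172 ± 12.8 CPM (SD, n = 5 each), 1.21-fold (1.04 to 1.41, edgeR adjusted p = 0.04). That call was lost without WT tumor 3 or D69A tumor 1, 2 or 4, up to an edgeR adjusted p of 0.0835.

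The cyclins that activate this kinase showed folds of the same size without passing: Ccna2 1.23-fold, Ccnb1 1.23-fold and Ccnb2 1.2-fold, with edgeR adjusted p-values of 0.0708, 0.0835 and 0.0899. Foxm1, the transcription factor that turns on many mitotic genes, was the remaining gene of these 5. Its values were 273, 223, 242, 153 and 252 CPM in WT tumors and 274, 245, 199, 264 and 232 CPM in D69A tumors. Apart from WT tumor 5 the Foxm1 values of the groups were intermixed, and the fold was 1.06 (0.856 to 1.32, edgeR adjusted p = 0.646).

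Bub1 (ENSMUSG00000027379, chromosome 2, 127801122 to 127831865), a kinase of the spindle checkpoint, had the smallest adjusted p of the 36. It stood at 101, 84.4, 91.9, 76.7 and 101 CPM in WT tumors and at 113, 120.4, 106, 128 and 115 CPM in D69A tumors. All D69A tumors lay above all WT tumors. Bub1 rose from 91.1 ± 10.7 to 116 ± 8.55 CPM (SD, n = 5 each), 1.28-fold (1.12 to 1.46, edgeR adjusted p = 0.00675). Its call held in all 10 fits that left out 1 tumor, with edgeR adjusted p-values from 0.00442 to 0.0185. Its checkpoint partner Bub1b (1.2-fold, edgeR adjusted p = 0.0913) and Cdc20, the activator that the checkpoint restrains (1.18-fold, edgeR adjusted p = 0.21), did not pass.

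None of the 4 genes of the mitotic kinases and the passenger complex passed. Aurkb, the kinase of that complex, had the largest fold of the 4, 1.17 (edgeR adjusted p = 0.151). Plk1, the Polo-like kinase of mitotic entry and spindle assembly, stood at 134, 94.6, 98.0, 70.0 and 117 CPM in WT tumors and at 127, 102, 94.1, 122 and 107 CPM in D69A tumors. WT tumor 2 held its highest value and WT tumor 5 its lowest, so the WT range enclosed every D69A tumor, and the fold was 1.07 (0.85 to 1.36, edgeR adjusted p = 0.614). Aurka, the spindle pole kinase, differed 1.02-fold (0.849 to 1.22), and Birc5, the survivin subunit of the same complex, 0.999-fold (0.808 to 1.23). Their estimates changed sign between alternative fits, and the intervals did not exclude a rise of 1.22-fold for Aurka or 1.23-fold for Birc5.

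Among the 6 kinetochore, motor and spindle genes, 4 passed. Cenpf (ENSMUSG00000026605, chromosome 1, 189640606 to 189688086), a large protein of the outer kinetochore, had the largest fold of the 36: 79.5, 61.8, 66.4, 49.2 and 67.0 CPM in WT tumors against 78.5, 96.8, 77.5, 117 and 91.3 CPM in D69A tumors. D69A tumors 1 and 3 lay below WT tumor 2, so the groups overlapped, and D69A tumor 4 stood highest. The means were 64.8 ± 10.9 and 92.2 ± 16.1 CPM (SD, n = 5 each), 1.42-fold (1.15 to 1.76, edgeR adjusted p = 0.0123). The Cenpf call, like that of Bub1, held with each tumor left out, at edgeR adjusted p-values from 0.00536 to 0.0302.

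Cenpe (ENSMUSG00000045328, chromosome 3, 135212537 to 135273611), the kinetochore motor that carries chromosomes to the spindle equator, was found at 82.8, 73.6, 78.9, 53.5 and 78.0 CPM in WT tumors and 93.5, 105, 77.6, 107 and 89.8 CPM in D69A tumors. Only D69A tumor 3 fell within the WT values. Cenpe rose 1.29-fold (1.07 to 1.55, edgeR adjusted p = 0.0317), a call lost without WT tumor 3 or D69A tumor 2 or 4. Kif11 (ENSMUSG00000012443, chromosome 19, 37376403 to 37421859), the motor that pushes the spindle poles apart, had 144, 126, 123, 93.4 and 149 CPM in WT tumors and 158, 158, 143, 169.6 and 154 CPM in D69A tumors. Again D69A tumor 3 alone reached into the WT range. Kif11 rose 1.23-fold (1.04 to 1.46, edgeR adjusted p = 0.0463), a call lost when any of the same 6 tumors as for Top2a was left out.

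Nusap1 (ENSMUSG00000027306, chromosome 2, 119618298 to 119651244), which bundles spindle microtubules, stood at 51.6, 50.5, 47.7, 39.0 and 50.1 CPM in WT tumors, and 55.4, 59.3, 54.6, 63.5 and 53.4 CPM in D69A tumors. Every D69A tumor exceeded every WT tumor. It rose 1.2-fold (1.06 to 1.36, edgeR adjusted p = 0.0244), and the call was lost without D69A tumor 2 or 4, with edgeR adjusted p up to 0.0547. Kif20a, the motor of the central spindle, had 169, 143, 137, 102 and 177 CPM in WT tumors and 172, 164, 140.5, 182 and 167 CPM in D69A tumors. The groups overlapped, and neither Kif20a (1.14-fold, edgeR adjusted p = 0.292) nor Tpx2, which activates Aurka on the spindle (1.16-fold, edgeR adjusted p = 0.136), passed. Of the exon length of Kif20a, 29.3% lies opposite exons of Cdc23, and the use of strand in counting is not given in the sources used here.

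**Figure D2:**
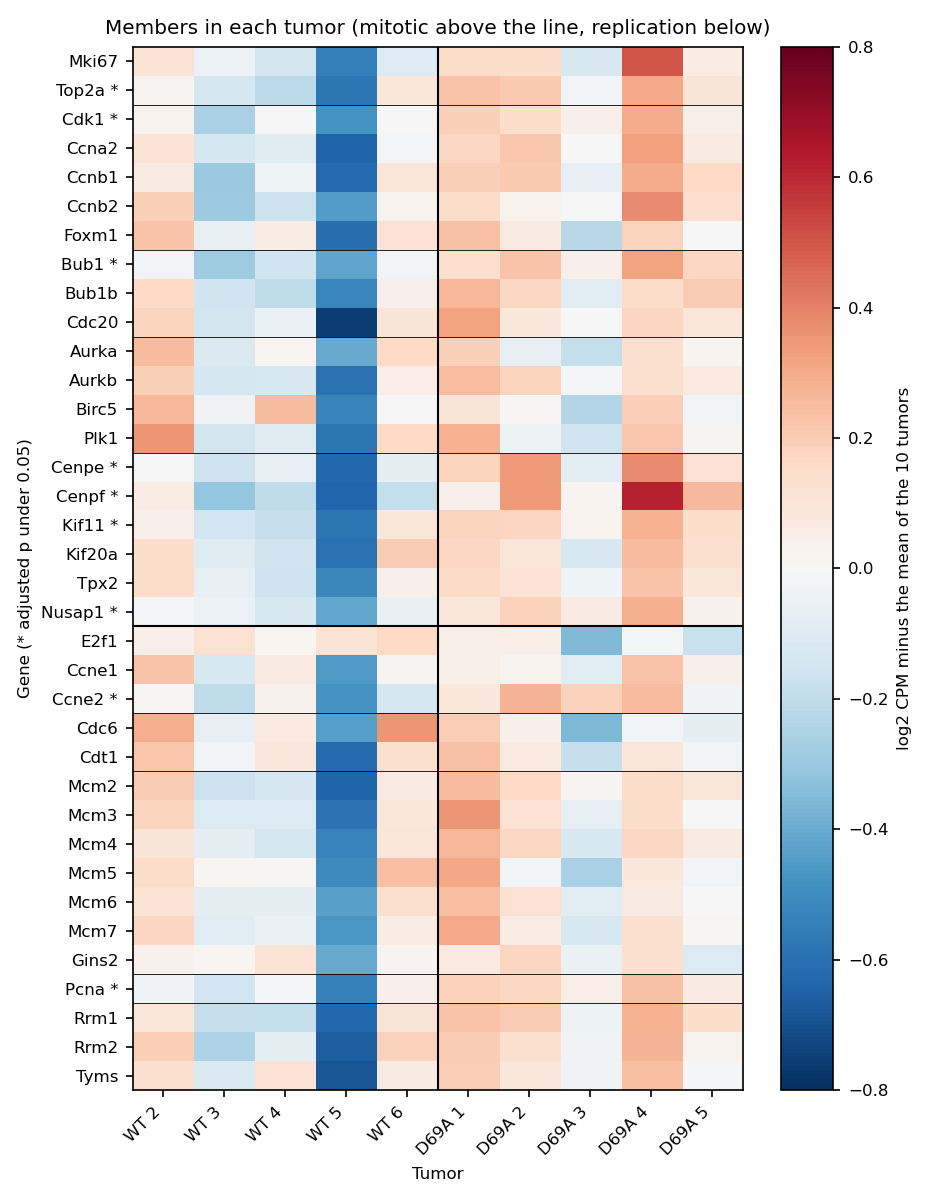
Each row is 1 of the 36 genes and each column 1 tumor; color gives log2 CPM minus the mean of the 10 tumors for that gene, red above and blue below it, and an asterisk marks the 9 genes that passed. The WT 5 column is the bluest for 35 of the 36 genes, all but E2f1, and D69A 4 holds the highest value of 17 genes.

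Among the replication genes, 1 of the 3 regulators of the step into S phase passed. Ccne2 (ENSMUSG00000028212, chromosome 4, 11191351 to 11204779), one of the cyclins E, stood at 45.8, 39.5, 46.6, 32.9 and 41.4 CPM in WT tumors and at 48.3, 54.9, 51.7, 54.3 and 44.6 CPM in D69A tumors. Only D69A tumor 5 reached into the WT range. Ccne2 rose 1.23-fold (1.06 to 1.43, edgeR adjusted p = 0.0279), a call lost without WT tumor 3 or D69A tumor 2 or 4. Of its exon length 17.4% lies opposite Ints8.

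Its paralog Ccne1 was measured at 74.6, 58.3, 67.1, 46.6 and 64.8 CPM in WT tumors and 65.8, 64.9, 60.0, 74.5 and 65.6 CPM in D69A tumors. The WT range enclosed the D69A values, and the fold was 1.06 (0.897 to 1.26, edgeR adjusted p = 0.55). E2f1, the transcription factor that turns on genes of S phase, was the 1 gene of the 36 for which WT tumor 5 was not the lowest: it ranged from 40.6 to 44.9 CPM in WT and from 31.5 to 41.8 CPM in D69A, a fold of 0.888 (0.786 to 1.003, edgeR adjusted p = 0.106). Its estimate stayed below 0 in each of the 19 alternative fits.

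Neither licensing factor passed. Cdt1, which brings the helicase to origins, stood at 104, 88.2, 95.2, 58.2 and 97.9 CPM in WT tumors and at 105, 94.4, 78.8, 95.9 and 88.2 CPM in D69A tumors. Its values were intermixed apart from WT tumor 5 (1.04-fold, 0.841 to 1.29, edgeR adjusted p = 0.763). Cdc6, its loading partner, ranged from 25.4 to 44.0 CPM in WT and from 26.8 to 39.5 CPM in D69A (0.932-fold, 0.746 to 1.17, edgeR adjusted p = 0.603).

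None of the 7 helicase genes passed, and their folds lay between 1.02 for Mcm5 and 1.18 for Mcm2. Mcm2, a subunit of the Mcm ring, stood at 396, 306, 314, 220.2 and 360.1 CPM in WT tumors and at 409, 383, 348, 381 and 366 CPM in D69A tumors. WT tumor 2 exceeded 4 of the 5 D69A tumors, and the difference did not pass (0.972 to 1.44, edgeR adjusted p = 0.15). The other ring subunits differed 1.15-fold (Mcm3), 1.15-fold (Mcm4), 1.09-fold (Mcm6) and 1.1-fold (Mcm7), with edgeR adjusted p-values from 0.176 for Mcm4 to 0.888 for Mcm5. For Gins2, a subunit of the complex that activates the ring, the fold was 1.06 (edgeR adjusted p = 0.544), and 67.3% of its exon length lies opposite Gse1.

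Pcna (ENSMUSG00000027342, chromosome 2, 132249162 to 132253314), the sliding clamp, stood at 293, 269, 296, 206 and 308 CPM in WT tumors and at 339.6, 336, 310.5, 352 and 313 CPM in D69A tumors. The groups did not overlap, with D69A tumor 3 just above WT tumor 6. Pcna rose from 274 ± 41.0 to 330.2 ± 17.7 CPM (SD, n = 5 each), 1.2-fold (1.03 to 1.4, edgeR adjusted p = 0.0474), the largest adjusted p among the 9 that passed. The call was lost without WT tumor 3 or D69A tumor 1, 2, 4 or 5. The annotation names the pseudogenes Pcna-ps1 and Pcna-ps2, with which reads may have been shared. The same holds for Ccnb1, Ccnb2 and Tyms, for which it names Ccnb1-ps, Ccnb2-ps and Tyms-ps.

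Of the genes of nucleotide supply, Rrm2, the regulated subunit of ribonucleotide reductase, had 612, 449, 504, 337 and 606 CPM in WT tumors and 612, 583, 524, 645 and 542 CPM in D69A tumors. WT tumors 2 and 6 were as high as the D69A tumors, and the fold was 1.16 (0.929 to 1.45, edgeR adjusted p = 0.258). Rrm1, the large subunit of the same enzyme, ranged from 228 to 377 CPM in WT and from 342 to 426 CPM in D69A, with 4 of 5 D69A tumors above every WT tumor (1.24-fold, edgeR adjusted p = 0.0696). It came nearest to the threshold among the genes that did not pass, and DESeq2 called it. Tyms, thymidylate synthase, differed 1.13-fold (edgeR adjusted p = 0.336).

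Levels between genes can be compared only per length. The length used here is that of all annotated exons of a gene. It was 6956 bases for Mcm2, whose longest coding transcript has 3371, so the order depends on that choice. Per kilobase of exon, Rrm2 was the most abundant of the 36, at 181 CPM per kilobase in WT and 210 in D69A tumors, followed by Pcna at 114 and 138. Next came Top2a at 50.9 and 63.2 CPM per kilobase. Cenpf, which had the largest fold, was the least abundant at 4.2 and 5.97 CPM per kilobase, and Cdc6 was next above it in WT tumors at 6.91. The genes that passed thus lay at both ends of the abundance order.

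The 36 genes shared much of their order across tumors. WT tumor 5 was the lowest of all 10 tumors in 35 of the 36 genes (97.2%), against 23.5% of tested genes, and within the D69A group tumor 3 was the lowest in 33 of 36 (91.7%), against 24.4%. The highest value of the 10 fell in D69A tumor 4 for 17 genes, D69A tumor 1 for 11, WT tumor 2 for 4, and in WT tumor 6 or D69A tumor 2 for the others. The median SD was 17.3% of the mean in WT and 8.98% in D69A, and 9.34% in WT without tumor 5. Without WT tumor 5 the fit called 10 genes, the same 9 and Ccna2, with smaller folds and a smaller median standard error (0.09 in place of 0.12, log2). Of all tested genes that fit called 20.5% as higher, against 18.8% with all tumors. The median log2 fold change was then 0.22 for mitotic genes and 0.08 for replication genes, down from 0.15 for the latter, and estimates for Aurka, Cdt1 and Mcm5 turned negative beside those of Birc5, E2f1 and Cdc6. WT tumor 5 was the highest WT tumor in 0 of the 36 genes. Leaving it out therefore could not change which of the 36 had all D69A tumors above all WT tumors. Their count stayed at 4, against 13.3% of tested genes.

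As a summary per tumor, the mean log2(CPM + 0.1) over the 20 mitotic genes was 7.09, 6.81, 6.87, 6.41 and 6.995 in WT tumors and 7.14, 7.10, 6.90, 7.24 and 7.06 in D69A tumors. Over the 16 replication genes it was 7.003, 6.78, 6.85, 6.37 and 6.97 in WT and 7.07, 6.98, 6.77, 7.02 and 6.87 in D69A. The groups overlapped in both summaries. The group means differed by 0.26 for mitosis, or 0.15 without WT tumor 5, and by 0.15 for replication, or 0.04 without it.

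The distance between the mitotic and the replication summary varied less. It was 0.08, 0.03, 0.01, 0.03 and 0.02 in WT tumors and 0.07, 0.12, 0.13, 0.22 and 0.19 in D69A tumors. WT tumor 2 lay above D69A tumor 1, and the other D69A tumors lay above every WT tumor. The means differed by 0.11 on the log2 scale, with and without WT tumor 5, so the mitotic genes stood a little higher relative to the replication genes in D69A tumors. The members were chosen with earlier results of these data known, so no test is attached to these summaries.

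**Figure D3:**
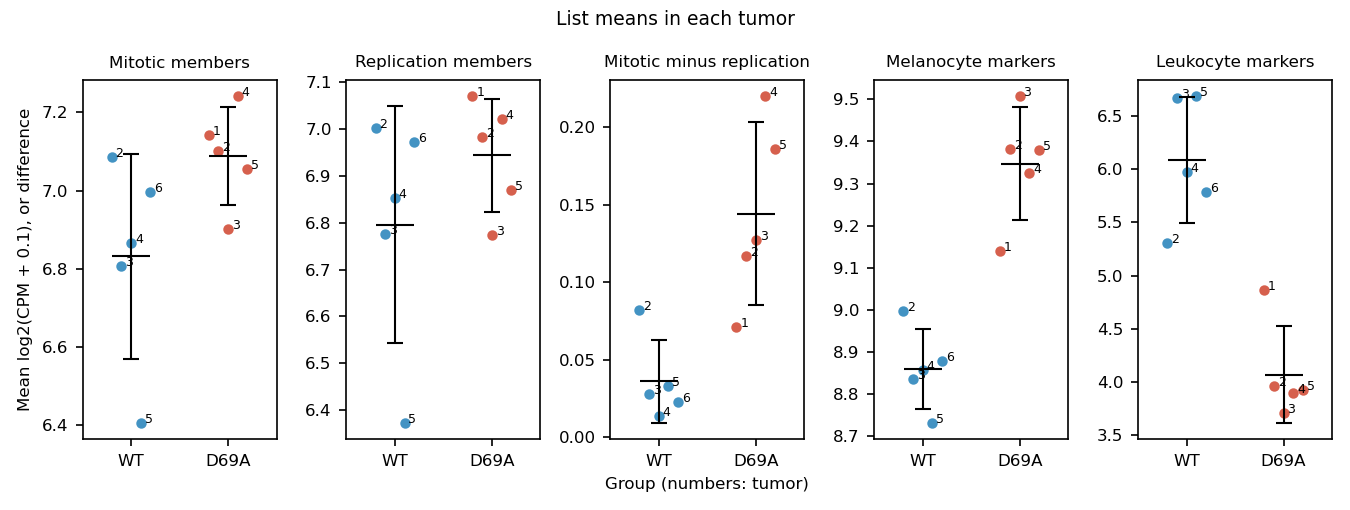
Mean log2(CPM + 0.1) over the mitotic genes, the replication genes, melanocyte markers and leukocyte markers, and the difference of the first pair, in each tumor (points, numbered by tumor) with the group mean and SD (bars). WT tumor 5 sits lowest for mitosis at 6.41 and replication at 6.37, and is highest for leukocytes at 6.68.

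Markers of the cell types in the tumors moved with the comparison, and those named here were at 0 in no tumor. All 12 leukocyte markers were lower in D69A tumors, with a summed level of 650.4 to 1727.7 CPM in WT and 243.0 to 491.0 CPM in D69A. All 15 T and NK cell markers were lower, summing to 102.7 to 286.8 CPM in WT and 20.95 to 63.6 CPM in D69A, as were 11 of 12 macrophage markers (725.4 to 1648.2 against 439.1 to 678.4 CPM). Fibroblast markers fell in 9 of 10 genes (2415.7 to 6165.9 against 415.8 to 1455.3 CPM) and endothelial markers in 10 of 10 (254.0 to 340.2 against 162.5 to 223.7 CPM). Of 17 melanocyte markers, which define the implanted line, 12 were higher in D69A, with a summed level of 22679.7 to 27848.8 CPM in WT and 32203.6 to 40030.3 CPM in D69A. WT tumor 5, lowest in the replication and mitosis genes, had the highest leukocyte summary (6.68, log2 scale) and the lowest melanocyte summary (8.73). WT tumor 3 had nearly the same leukocyte summary (6.66), with a mitotic summary of 6.81, the lowest of the other tumors, against 6.41 in WT tumor 5. From WT tumor 2 through 6, 4 and 3 to 5 the leukocyte summary rose (5.31, 5.78, 5.97, 6.66 and 6.68). In that order both the mitotic and the replication summary fell. D69A tumor 3, lowest of its group in 33 of the 36, had the opposite makeup to WT tumor 5, with the lowest leukocyte summary (3.71) and the highest melanocyte summary (9.51) of all tumors. Set against the melanocyte summary, the mitotic summary was -2.03 in WT and -2.26 in D69A tumors, and the replication summary -2.06 and -2.40, lower in D69A with groups that overlapped. Without WT tumor 5 the groups still overlapped for mitosis, but for replication they did not, with -2.06 as the lowest value in WT and -2.07 as the highest in D69A. The part of cell composition in the differences of the 36 genes was not tested.

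Skeletal muscle markers were uneven in both groups, with summed levels of 24.2 to 2367.4 CPM in WT and 18.5 to 806.3 CPM in D69A, 9 of the 20 were at 0 in at least 1 tumor, and none passed the test (1 had an unadjusted p under 0.05). In a fit without the 3 tumors highest in them (WT 3, WT 4 and D69A 1), chosen after the data were seen, 0 of the 36 genes passed and 5 had an unadjusted p under 0.05, while 31.2% of all tested genes passed and 12.4% passed as higher. The smallest edgeR adjusted p was then 0.0519, for Cenpf, and 31 of 36 estimates stayed above 0, their median being 0.19 (log2). That fit held fewer tumors, and the median standard error of the 36 genes was 0.17 in place of 0.12 (log2). Muscle content and the number of tumors cannot be told apart in it. Total counts ranged from 25904345 to 37578722 per tumor, lowest in WT tumor 6. Il18 stood at 27.02 to 32.97 CPM in WT and 25.2 to 30.4 CPM in D69A (edgeR adjusted p = 0.261), and both groups were made to overexpress it.

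Fold changes of the 36 genes went with the GC content of their transcripts. Across the 36 genes, Spearman's rho between the log2 fold change and the GC content of the longest coding transcript was -0.73 (-0.74 over the 20 mitotic and -0.67 over the 16 replication genes), a description across genes of the same libraries. All 9 genes that passed were among the 18 with lower GC (36.3% to 47.8%), whose median log2 fold change was 0.29, and none were among the 18 with higher GC, whose median was 0.12. Ccne2 had the lowest GC content of the 36, at 36.3%, and Bub1, Nusap1, Kif11, Cenpe, Cenpf and Top2a followed at 41.0% to 43.4%. Across all tested genes rho was -0.15, with median log2 fold changes from 0.07 in the 20% of genes with the lowest GC to -0.10 in the 20% with the highest. Over 90 other genes of mitosis and replication rho was -0.28, and over the 17 melanocyte markers 0.09. Transcript length gave rho of 0.48 for the mitotic and -0.09 for the replication genes. The median GC content was 47.6% for the mitotic and 50.7% for the replication genes. The part of GC content in these differences, and in the distance between the mitotic and the replication summary, was not tested.

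**Figure D4:**
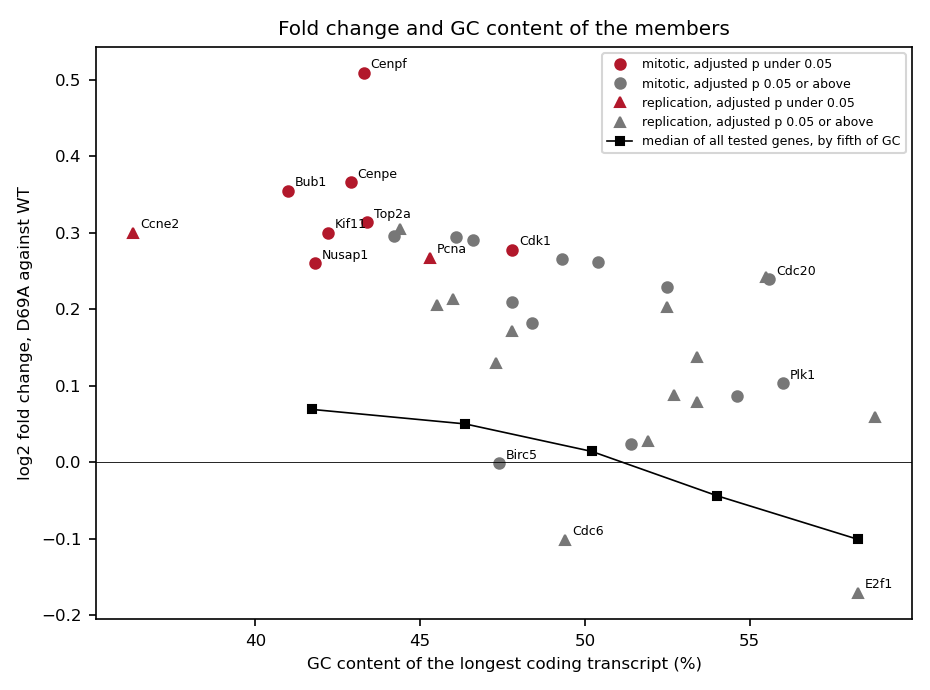
Log2 fold change of D69A against WT for each of the 36 genes against the GC content of its longest coding transcript in percent; circles are mitotic genes, triangles replication genes, red those that passed, and the black line joins the medians of all tested genes in 5 classes of GC content. The red points lie between 36.3% and 47.8% GC, and the black line runs from 0.07 down to -0.10.

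Of 45 further genes of mitosis 10 rose (22.2%) and 1 fell (2.22%), and the median log2 fold change was 0.20. Aspm, which organises the spindle poles, rose most in this list: 126, 102, 114, 80.5 and 130 CPM in WT tumors against 170, 191, 163, 218 and 188 CPM in D69A tumors. Every D69A tumor was above every WT tumor (1.68-fold, edgeR adjusted p = 0.00119), a larger fold than that of any of the 36 genes. Ect2 (1.35-fold, edgeR adjusted p = 0.0056) and Anln (1.22-fold, edgeR adjusted p = 0.0098), which both act in cytokinesis, rose as well, beside Knl1, Kif15, Racgap1, Ncaph, Ncapd2, Smc2 and Cit. Pttg1, securin, which holds back the protease that parts sister chromatids, was the 1 that fell, to 0.787-fold (edgeR adjusted p = 0.00448).

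Of 45 further genes of replication 7 rose (15.6%) and no call was lower; 9 had an unadjusted p under 0.05, and the median log2 fold change was 0.14. Tipin, which protects stalled forks, rose 1.3-fold (edgeR adjusted p = 0.00597), and Prim2, a primase subunit, rose 1.18-fold (edgeR adjusted p = 0.00713). Dnmt1, which copies DNA methylation behind the fork, and Rpa1, which coats single-stranded DNA, rose 1.28-fold and 1.23-fold, and Dut, Rpa3 and Rfc1 were the others that rose. WT tumor 5 was the lowest of the 10 tumors in 43 of the 45 mitosis genes and 40 of the 45 replication genes, as it was for the 36.

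Of 22 regulators of the G1 phase, 3 rose (13.6%) and 2 fell (9.09%), at a median log2 fold change of 0.11. Cdk4, the kinase partner of the D cyclins, rose 1.25-fold (edgeR adjusted p = 0.0208), as did Lin54, a subunit of the complex that reads TTTGAA in mitotic promoters, 1.19-fold (edgeR adjusted p = 0.0197), and Cdk2. Ccnd3, a D cyclin, fell to 0.823-fold (edgeR adjusted p = 0.00178), and E2f4, a repressive E2F, to 0.816-fold (edgeR adjusted p = 0.0023). WT tumor 5 was lowest of the 10 in 12 of these 22 genes.

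A further list held CDK inhibitors and genes of the p53 checkpoint, not all of which hold back the cycle. Of 16 genes of the CDK inhibitors and the p53 checkpoint 15 were tested (not Cdkn2a), 4 fell (26.7%) and 1 rose (6.67%), with the median log2 fold change at -0.01. As for the 3 other lists, these shares stand beside 18.8% of all tested genes called higher and 24.7% called lower. Gadd45a, a stress gene that restrains the cycle, fell from 22.0 ± 5.16 to 13.9 ± 1.23 CPM (SD, n = 5 each), to 0.633-fold (edgeR adjusted p = 0.00473), and Btg2, an antiproliferative target of p53, to 0.683-fold (edgeR adjusted p = 0.0101). Cdkn2b, the inhibitor of Cdk4, fell to 0.291-fold from a level of 0.743 ± 0.289 CPM (SD, n = 5), and Cdkn1c fell too. In D69A tumors Cdkn2b stood at 0.111 to 0.348 CPM, near the floor of 3 counts (0.0798 to 0.0872 CPM there), so its fold rests on few reads. Ccng1, a cyclin that p53 induces, rose 1.32-fold (edgeR adjusted p = 0.00346). WT tumor 5 was lowest of the 10 tumors in 4 of these 15 genes, and it held the highest Gadd45a and Btg2 values, 28.8 and 57.2 CPM. Markers of immune and stromal cells were lower in the same tumors, and their part in these values was not tested.

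**Figure D5:**
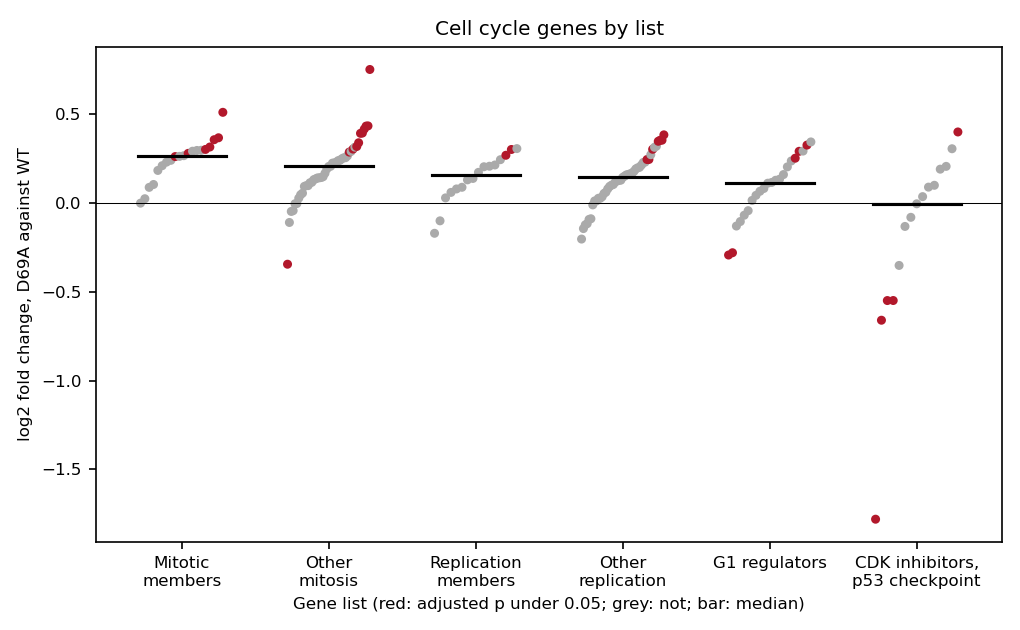
Log2 fold change of D69A against WT for every tested gene (points, in order of value) of 6 lists of cell cycle genes, red with an adjusted p under 0.05 and grey without, and the median of each list (bar). Medians run from 0.26 for the 20 mitotic genes and 0.15 for the 16 replication genes to -0.01 for the list of CDK inhibitors and p53 checkpoint genes.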

How the data were processed

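The table the authors deposited gave read counts for each Ensembl gene in 10 tumors, as whole numbers with no scaling between samples. Per the submitters' processing notes, fastp, HISAT, Bowtie, RSEM and the build mm10 were used; versions, roles and strand use were not given in the sources used here. Since RSEM estimates counts, the values may have been rounded. Symbols were found for 17670 identifiers and not for 67. After edgeR's filterByExpr and TMM scaling, the groups were tested with the quasi-likelihood F test (edgeR 4.0.16, R 4.3.3) and Benjamini-Hochberg adjustment over 13798 genes. SEs came from the F statistic.

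The 36 genes and the other lists were chosen with earlier results of these data known. Values in each tumor are given for every member that passed and for the member of each role with the highest mean CPM, and up to 4 genes with the smallest p are named from each further list of cell cycle genes. Other genes of those lists named as changed were chosen after their values were seen. A floor of 3 counts was at most 0.116 CPM. All pairs of tumors in a group differed beyond sampling noise (chi-square per degree of freedom at least 13.9). In counts simulated for this comparison, 50 of 13798 genes were changed at each fold, drawn at any level of expression. The test found 6% of those changed 1.2-fold, 52% of those changed 1.5-fold, 74% for 2-fold and 88% for 4-fold, and 5.98% of calls were false. Alternatives were upper quartile scaling, RLE scaling, library size only, 2 other filters, DESeq2 1.42.0, limma-voom (limma 3.58.1), a replicate block and omission of each tumor. The fit without the tumors highest in muscle markers was added after seeing the data.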

Additional observations from a re-analysis of the deposited data

Results flagged for a closer look

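In 76 groups of 5 values (the 36 genes and the mitotic and replication summaries, in WT and in D69A), 1 value stood apart from the others of its group. Gins2 was at 23.4 CPM in WT tumor 5, against 31.4 to 33.5 CPM in the other WT tumors, so that the gap to its neighbor made up 0.791 of the range. By chance about 1 group in 20 holds such a value. WT tumor 5 was also the lowest tumor for 34 of the other members.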

How the results depend on the processing

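None of the 9 genes that passed changed direction in any alternative, and Bub1 and Cenpf kept their calls in every planned one. RLE scaling called 9 members, limma-voom 9 and DESeq2 11, with Ccna2 and Rrm1 added. In the same order 19.6%, 19.2% and 21.2% of all tested genes were called higher, against 18.8% in the main fit. Without the 3 tumors highest in muscle markers (chosen after seeing the data) 1719 genes were higher, 0 of them mitotic members and 0 replication members. Mitotic members higher came to 3 with upper quartile scaling, 2 with library size only and 4 with no filter. Replication members higher came to 0, 0 and 1 in the same order, and to 1 with the filter of 1 CPM in 5 tumors. Leaving out each tumor gave 2 to 13 mitotic and 0 to 4 replication members. Estimates near 0 changed sign, and the cause was not tested: Aurka -0.0084 (upper quartile), -0.0203 (library size), -0.0504 (without muscle-high tumors) and -0.0317 to 0.11 leaving out 1 tumor; Birc5 0.0021 (RLE, DESeq2), 0.0003 (no filter), 0.0186 (voom), 0.0516 (without muscle-high tumors) and -0.0813 to 0.0921. Plk1 was -0.0089 without muscle-high tumors. Mcm5 was -0.0017 (upper quartile), -0.0136 (library size), -0.0418 (without muscle-high tumors) and -0.0448 to 0.13. Leaving out 1 tumor gave -0.174 to 0.0081 for Cdc6 and -0.0295 to 0.149 for Cdt1.

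With the replicate number as a block 8 mitotic and 2 replication members were higher, among 2243 genes, and all 9 calls were kept. WT tumor 6 and D69A tumor 1 have no partner of the same number, so they added nothing to the group estimate of that fit. Whether the numbers pair the tumors is not given in the sources used here. In their deviations from the group means, same-numbered tumors correlated at 0.177, -0.417, 0.203 and 0.167. Not every tumor correlated best with its own number, and these few values cannot settle the pairing. Depth was no limit for the members. Calls moved with single tumors. Simulated 1.2-fold changes were recovered in 6% of genes, but that share does not measure the chance of a call for the members. In the simulation 50 of 13798 genes, drawn at any level of expression, were changed at each fold, whereas 43.6% of tested genes passed here.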
